A study of Thermothelomyces thermophilus with 49 samples.

Results

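The parental strain MJK20.3 of *Thermothelomyces thermophilus* was compared with itself over a short interval, at 1 h (t2) against 0.5 h (t1) after cellulose was added to a glucose-limited culture. These 2 times follow each other within the onset of the response, so the comparison shows which transcripts still moved once the response had begun. The libraries were chosen by strain and sampling time alone, and they are 4 of the 48 libraries of the series. Each time is covered by the same 2 bioreactor cultures, R1 and R2. Of 9292 genes in the count table, 8565 had enough counts to be tested.

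*T. thermophilus* is a thermophilic filamentous fungus that secretes enzymes against plant cell walls. MJK20.3 carries a deletion of *ku80*, a gene of non-homologous end joining, and was obtained by sub-cultivation of MJK20.2, in which the study found contamination by the wild type. The same deletion is carried by BS7.8, which also lacks *clr1*, by BS6.4, which also lacks *clr2*, and by JK2.8, which also lacks *clr4*; they are called *Δclr1*, *Δclr2* and *Δclr4* here. All strains passed through a glucose-limited chemostat (steady state, SS) before the cellulose spike, and the feed was then stopped, so the end of glucose supply and the presence of cellulose cannot be told apart. RNA with poly(A) tails was sequenced from whole mycelium, in which fewer expressing hyphae and less RNA per hypha cannot be told apart.

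In filamentous fungi, cellulose is cut by endoglucanases within the chain and by cellobiohydrolases from the chain ends, and ß-glucosidases split the released cellobiose to glucose. Lytic polysaccharide monooxygenases (LPMOs) open the crystalline surface by oxidation, with cellobiose dehydrogenase as a possible electron donor. The genes are switched on by transcription factors, of which Clr1 and Clr2 are known from *Neurospora crassa* and Xyr1 from *Trichoderma reesei*, and are repressed in the presence of glucose through Cre1. Ribosome and translation initiation genes are known from *Saccharomyces cerevisiae* to be repressed when glucose runs out.

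Library totals of the parental strain were 4995811 and 4958800 counts at t2, against 3440862 and 3503006 at t1. Counts were thus higher at t2 in both cultures, and 8767 and 8692 genes had at least 1 count at t2, against 8644 and 8667 at t1. The 10 most abundant genes took 12.4% and 14.5% of the counts at t2, against 8.25% and 8.19% at t1. The deleted genes checked the labels, with 0 to 20 counts of *clr1* in the libraries of BS7.8, 0 to 1 of *clr2* in those of BS6.4 and 0 to 2 of *clr4* in those of JK2.8, whereas all 3 genes had counts in every parental library. Levels are given in CPM, a gene's counts scaled to a common library total after correction by the TMM factor, and are thus relative to the other genes of a library. Calls are those of edgeR's quasi-likelihood test with a Benjamini-Hochberg adjusted p under 0.05 over all tested genes. With 2 libraries per group, an exact permutation test of a gene cannot reach 0.05.

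Between 0.5 h and 1 h the parental strain raised most tested cellulase transcripts and those of several regulators. It lowered most transcripts listed under the large ribosomal subunit and under translation initiation. Of the 8565 tested genes, 1424 were called, which is 16.6% of all tested genes. They divided into 706 genes that rose (8.24%) and 718 that fell (8.38%). The median change of the risen genes was 0.91 on the log2 scale and that of the fallen genes -0.73. A change of at least 2-fold was reached by 294 risen and 176 fallen genes, together 5.49% of the tested genes. Both t2 libraries lay above both t1 libraries in 2399 genes (28%), and below them in 2289 genes (26.7%). The number of called genes was 767 without R1 at t1, 907 without R1 at t2, 802 without R2 at t2 and 384 when the 4 libraries were fitted alone.

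**Figure D1:**
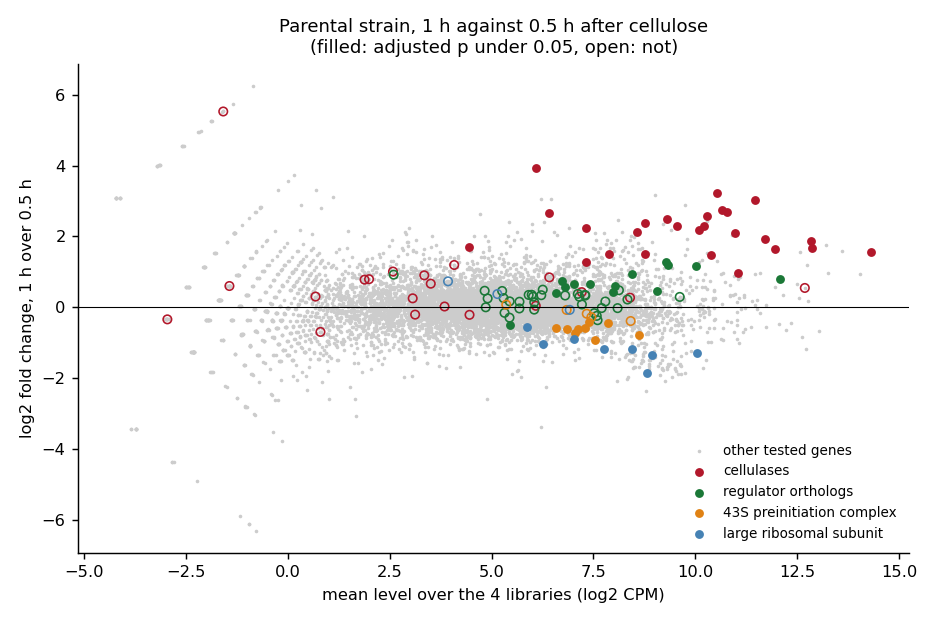
Each point is a tested gene of the parental strain, with its mean level over the 4 libraries at 1 h and 0.5 h (x axis, log2 CPM) and its log2 fold change of 1 h over 0.5 h (y axis), without the 16 tested genes that had no count in the 4 libraries. Filled coloured points were called and open ones were not, and the 26 called cellulases lie above 0 while the 8 called genes of the large ribosomal subunit lie below it.

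Of the enzyme classes of the study, the cellulases had the most risen genes relative to their number. Of 49 listed genes, 47 were in the table and 46 were tested, of which 26 rose and 0 fell, with a median log2 change of 1.51 against 0.00 over all tested genes. Their summed share was 8.52% and 10.7% of all counts at t2, against 2.55% and 4.18% at t1. Both cultures thus gained, and the t2 values did not overlap those of t1. This share was 0.193% at steady state, 3.37% at t1, 9.60% at t2, 11.8% at t3 (2 h) and 9.06% at t4 (4 h), as means of 2 cultures. Among the 26 risen genes, 15 had a higher mean at t3 than at t2 and 11 a lower one. These times share the t2 libraries with the comparison and are given side by side with no further test.

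**Figure D2:**
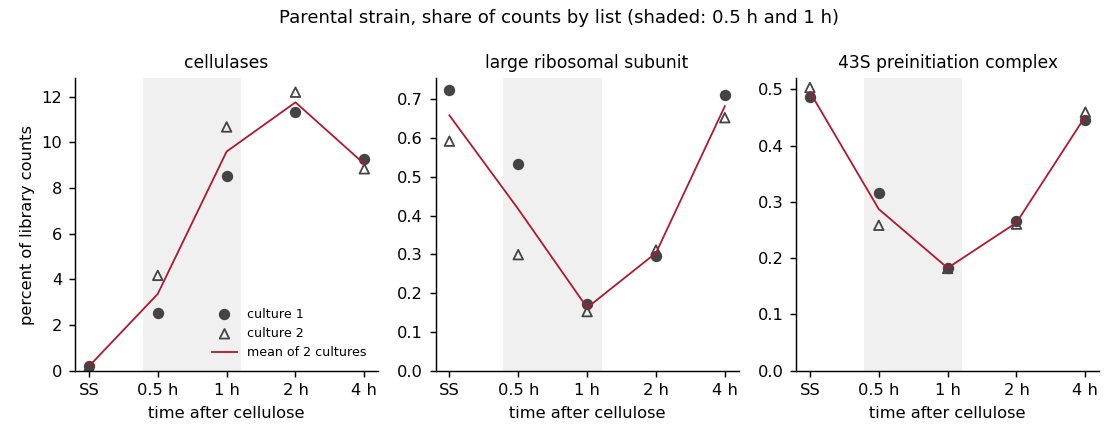
The percent of all library counts held by cellulases, by genes of the large ribosomal subunit and by genes of the 43S preinitiation complex (y axes, from 0) is drawn for SS and the times from 0.5 h to 4 h of the parental strain, equally spaced. Filled circles are culture R1, open triangles culture R2 and lines the mean of both, and the shaded interval holds the compared times, over which the mean cellulase share was 9.60% at 1 h and 3.37% at 0.5 h.

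LPMOs made up the part of the cellulase class with the strongest rises. Of 22 tested genes, 13 rose and 0 fell, with a median of 2.10. MYCTH_2112799, an LPMO of family AA9, had 122 CPM in R1 and 135 CPM in R2 at t2, against 1.20 CPM and 15.3 CPM at t1, which was the largest rise among genes averaging at least 50 counts over the 4 libraries (log2 3.93 ± 0.56 SE, adjusted p = 4.2e-05). At steady state it had 2 and 0 counts, so that its transcript was near absent before the spike, and it had mean levels of 322 CPM at t3 and 470 CPM at t4. MYCTH_100518, also of AA9, had 1937 and 3393 CPM at t2, against 167 and 400 CPM at t1 (log2 3.23 ± 0.42, adjusted p = 1.1e-05). Both t2 libraries of these genes lay far above both t1 libraries. MYCTH_2298502 rose by 2.73 and MYCTH_112089 by 2.70 on the log2 scale. MYCTH_111088 and MYCTH_80312 carry a CBM1 cellulose-binding module beside the AA9 domain and rose by 2.57 and 2.18. The 9 LPMO genes that were not called were all low, with at most 16.8 CPM in any of the 4 libraries, a level reached by MYCTH_2054500 in R1 at t2.

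Of 6 tested cellobiohydrolases, 5 rose. MYCTH_109566 (GH7 with CBM1) had the highest level per length of all risen genes at t2, with a mean of 15278 CPM per kb of annotated gene, against 5163 CPM per kb at t1. It alone held 25951 and 35193 CPM at t2, against 8017 and 12644 CPM at t1 (log2 1.57 ± 0.33, adjusted p = 0.00091). Its mean level was 154 CPM at SS, 10331 CPM at t1, 30572 CPM at t2, 29389 CPM at t3 and 27675 CPM at t4, so that the t2 level stood close to those of the later times. MYCTH_97137 (GH7 without CBM1) changed more from a lower start, with 2691 and 7338 CPM at t2, against 147 and 1085 CPM at t1 (log2 3.02 ± 0.55, adjusted p = 0.00027). The cultures differed several-fold at both times, R2 being the higher. Its call was lost when the 12 parental libraries were fitted alone and when the 4 compared libraries were. MYCTH_66729 (GH6 with CBM1) rose by 1.87, MYCTH_2303045 (GH6) by 1.68 and MYCTH_51545 (GH6) by 2.67.

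Endoglucanases and ß-glucosidases moved less. Of 9 endoglucanases, 5 rose, with a median of 1.28 over the 9 genes. MYCTH_86753 (GH5 with CBM1) was the highest of them per length, with 5829 and 6189 CPM at t2, against 1706 and 2131 CPM at t1 (log2 1.65 ± 0.22, adjusted p = 4.4e-06). Of 9 ß-glucosidases, 3 rose, with a median of 0.54, and 5 rose when the culture was a term in the fit. MYCTH_58882 and MYCTH_66804 (both GH3) rose by 2.48 and 2.29 on the log2 scale, and MYCTH_62925 (GH3) by 0.97, a call that was lost without R1 at t1 and without R2 at t2. MYCTH_115968, the only listed ß-glucosidase of family GH1, had 7089 and 8578 CPM at t2, against 4939 and 5806 CPM at t1, and was not called (log2 0.54, adjusted p = 0.12). It was the highest ß-glucosidase per length at both times.

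Rises were also called under the term cellulose binding, in cellobiose dehydrogenase and in CBM1 proteins. Of 16 genes under the GO term cellulose binding, 12 rose and 0 fell, with a median of 1.81, and these overlap the cellulase list. The GO lists used here are those of the study's enrichment analysis of the same samples, so they are no independent evidence of a direction. Cellobiose dehydrogenase has 2 genes that rose. MYCTH_111388 had 12964 and 16437 CPM at t2, against 3692 and 5033 CPM at t1 (log2 1.75 ± 0.36, adjusted p = 0.00085), and MYCTH_81925 had 8096 and 10245 CPM at t2, against 2252 and 3909 CPM at t1 (log2 1.57 ± 0.35, adjusted p = 0.0018). In both genes each t2 library lay above each t1 library, and the call of MYCTH_81925 was lost without R1 at t1 (adjusted p = 0.071). The CBM1 proteins MYCTH_33936 and MYCTH_112399, which the study lists outside the cellulases, rose by 2.18 and 1.91, and the call of MYCTH_33936 was lost without R1 at t1 (adjusted p = 0.054).

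Hemicellulases kept a similar summed share of counts over the same interval, while more of them were called as risen than as fallen. Of 62 tested genes, 9 rose and 2 fell, with a median of 0.21. Among all tested genes 8.24% rose and 8.38% fell. The summed share of the hemicellulases was 1.16% of counts at t2, against 1.11% at t1. The arabinofuranosidase MYCTH_98003 (GH62 with CBM1) had 361 and 571 CPM at t2, against 55.7 and 111 CPM at t1 (log2 2.48 ± 0.29, adjusted p = 7.6e-07). Among the risen members were also the mannanases MYCTH_99077 (GH26, log2 1.68) and MYCTH_84297 (GH5, log2 1.32), the call of the second being lost without R1 at t1 (adjusted p = 0.053). Of 9 tested xylanases, only MYCTH_49824 (GH11) rose, by 1.64, and its call was lost without R1 at t1 and without R2 at t2 (adjusted p up to 0.18 over the omitted libraries). Another arabinofuranosidase, MYCTH_2301869 (GH43), fell, with 19.6 and 25.9 CPM at t2, against 58.4 and 96.1 CPM at t1 (log2 -1.77 ± 0.50, adjusted p = 0.014), and this call was lost without R2 at t1 or either t2 library (adjusted p up to 0.12).

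Calls in pectinases, esterases and enzymes of the fungal wall were fewer in number than in the cellulases. Over all tested genes, the called share was 16.6%, with 8.24% risen and 8.38% fallen. Of 11 pectinases, 2 rose and 0 fell, the lyases MYCTH_52332 (PL1) and MYCTH_51766 (PL4), and 4 rose with the culture as a term. In both lyases R1 was well below R2 at t1, for example 52.7 against 138 CPM in MYCTH_51766, while the t2 levels of 204 and 216 CPM were close. The call of MYCTH_51766 was lost without R1 at t1 (adjusted p = 0.093), and that of MYCTH_52332 without that library or either t2 library (adjusted p up to 0.44). Of 14 esterases, 1 rose and 2 fell. The acetyl esterases of family CE16 split, with MYCTH_84133 at 1332 and 1373 CPM at t2, against 303 and 560 CPM at t1, and MYCTH_40885 at 97.8 and 109 CPM at t2, against 460 and 409 CPM at t1 (log2 1.65 and -2.07). Of 33 genes of cell wall remodelling, 4 rose and 5 fell. The chitinase MYCTH_2308241 fell by 1.06, whereas the transglucosylase MYCTH_60294, an enzyme family that joins glucan chains of the wall, rose by 0.72, a call lost without R1 at t1 and without R2 at t2 (adjusted p up to 0.17). Glycosyltransferases split evenly, with 6 risen and 6 fallen of 82 and a median of 0.00.

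Some risen genes with a high level or a large change are named by no list of the study. MYCTH_2298860 on chromosome 1 was among the 5 risen genes of highest level per length at t2, with 18238 and 19418 CPM, against 5899 and 6557 CPM at t1 (log2 1.60 ± 0.23, adjusted p = 7.9e-06). MYCTH_2051636 had 129 and 137 CPM at t2, against 9.89 and 21.7 CPM at t1 (log2 3.06 ± 0.29, adjusted p = 3.9e-08). Like the LPMOs it was near absent at SS, with 1 and 0 counts, and had mean levels of 183 CPM at t3 and 186 CPM at t4.

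A trio of the most risen genes behaved differently, since they were high at t2 and at no other sampled time. MYCTH_85068, which the study's annotation places under metal ion binding, had 899 and 963 CPM at t2, against 71.3 and 133 CPM at t1 (log2 3.18 ± 0.34, adjusted p = 2.9e-07). Its mean level was 30.5 CPM at SS, 102 CPM at t1, 931 CPM at t2, 57.2 CPM at t3 and 25.4 CPM at t4. MYCTH_2315623 had 1598 and 1434 CPM at t2, against 152 and 261 CPM at t1 (log2 2.88 ± 0.43, adjusted p = 2.5e-05), and means of 139, 206, 1516, 199 and 59.6 CPM from SS to t4. MYCTH_2307146 had 174 and 142 CPM at t2, against 13.5 and 24.2 CPM at t1 (log2 3.06 ± 0.32, adjusted p = 1.8e-07), and means of 15.2, 18.9, 158, 20.1 and 13.1 CPM. The cultures were close at t2 in all 3 genes. MYCTH_85068 lies on chromosome 7 (1751098 to 1752336), and MYCTH_2315623 (2913582 to 2916775) and MYCTH_2307146 (3128568 to 3130287) lie on chromosome 4, in coordinates of ASM22609v1.

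**Figure D3:**
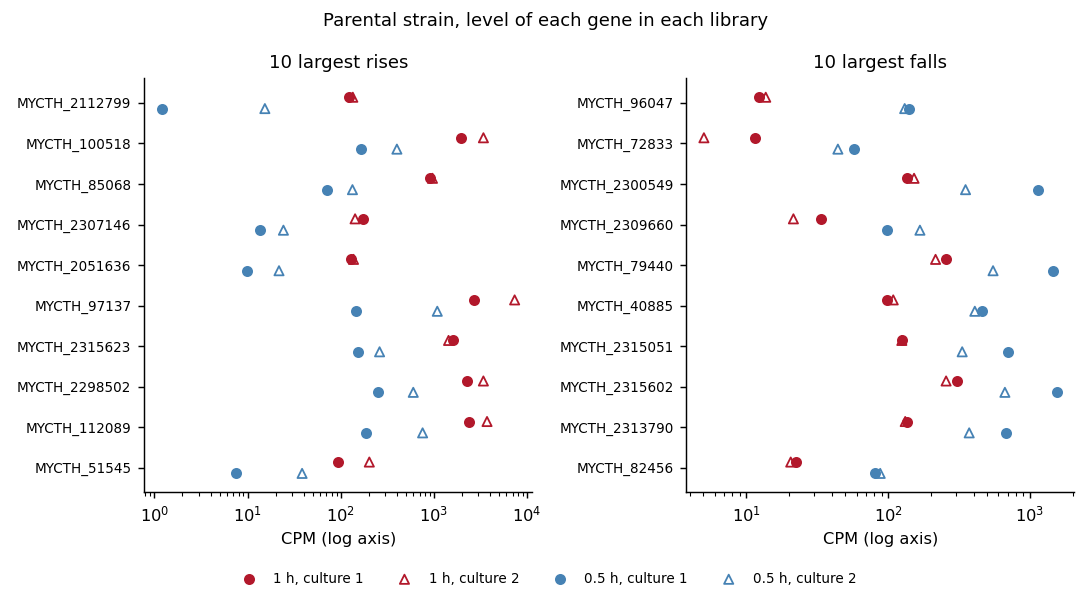
CPM of each parental library (x axis, log scale) for the 10 genes with the largest rise (left) and the 10 with the largest fall (right), 1 h in red and 0.5 h in blue, filled circles culture R1 and open triangles culture R2. In each of the 20 genes both libraries at 1 h lie on the same side of both libraries at 0.5 h, as in MYCTH_96047 with 12.3 and 13.7 CPM at 1 h against 140 and 131 CPM at 0.5 h. The genes were picked for their change between these same libraries, so this separation follows largely from the choice.

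Levels at t2 stood apart from the neighbouring times in many called genes. In 346 of the 706 risen genes (49%), both t2 libraries were above all 8 parental libraries of SS, t1, t3 and t4, and in 307 of the 718 fallen genes (42.8%) both were below all of these. Cellulases rarely showed this, with 4 of 26 risen genes (15.4%). Of the 13 risen regulator orthologs, 8 did (61.5%), and all 8 fallen genes of the large ribosomal subunit and all 9 of the 43S complex had both t2 libraries below the other 8. Since the call itself needs t2 to differ from t1, these counts are a description of the time course. The same shares over all tested genes are not given, so the counts have no baseline.

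Among 47 orthologs of known regulators, 13 rose and 1 fell, with a median of 0.33, while 8.24% of all tested genes rose and 8.38% fell. *clr2* (MYCTH_38704), which encodes an activator of cellulase genes in *N. crassa*, had 959 and 835 CPM at t2, against 299 and 494 CPM at t1 (log2 1.18 ± 0.31, adjusted p = 0.0085). Its mean was 11.7 CPM at SS and 396, 897, 512 and 515 CPM from t1 to t4. *xyr1* (MYCTH_2310145) had 1582 and 1273 CPM at t2, against 613 and 653 CPM at t1 (log2 1.17 ± 0.30, adjusted p = 0.0068). In both genes the groups did not overlap, but either call was lost without R1 at t1 or without R1 at t2, with adjusted p up to 0.16 for *clr2* and 0.073 for *xyr1*. Counted anew over all 47 orthologs, 14 were called in the fit of all 48 libraries and 2 with the 4 libraries alone. Fewer than 14 were called without R1 at t1 and without R1 at t2.

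*gaaR/pdr2* (MYCTH_46266), an activator of pectin degradation in *Aspergillus* and *N. crassa*, had 901 and 859 CPM at t2, against 341 and 381 CPM at t1, and kept its call under every alternative (log2 1.28 ± 0.17, adjusted p = 3e-06). Its mean was 122 CPM at SS and 361, 880, 338 and 379 CPM from t1 to t4, so that the t2 level was the highest of the sampled times. The gene of its repressor GaaX, MYCTH_46981, had 174 and 140 CPM at t2, against 81.2 and 160 CPM at t1, and was not called (log2 0.38, adjusted p = 0.24). Its log2 change was -0.03 without R1 at t1 and 0.95 without R2 at t1. *hacA/1* (MYCTH_2310995), the regulator of the unfolded protein response, had 5755 and 5292 CPM at t2, against 3283 and 3026 CPM at t1 (log2 0.81 ± 0.17, adjusted p = 0.00076). Its change was 0.81 in either culture, on log2 of CPM plus 1. The pH regulator *pacC/1* (MYCTH_81165) had 443 and 471 CPM at t2, against 173 and 304 CPM at t1 (log2 0.94 ± 0.17, adjusted p = 0.00025), and a mean of 179 CPM at SS, so that R1 at t1 was still at its steady-state level.

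**Figure D4:**
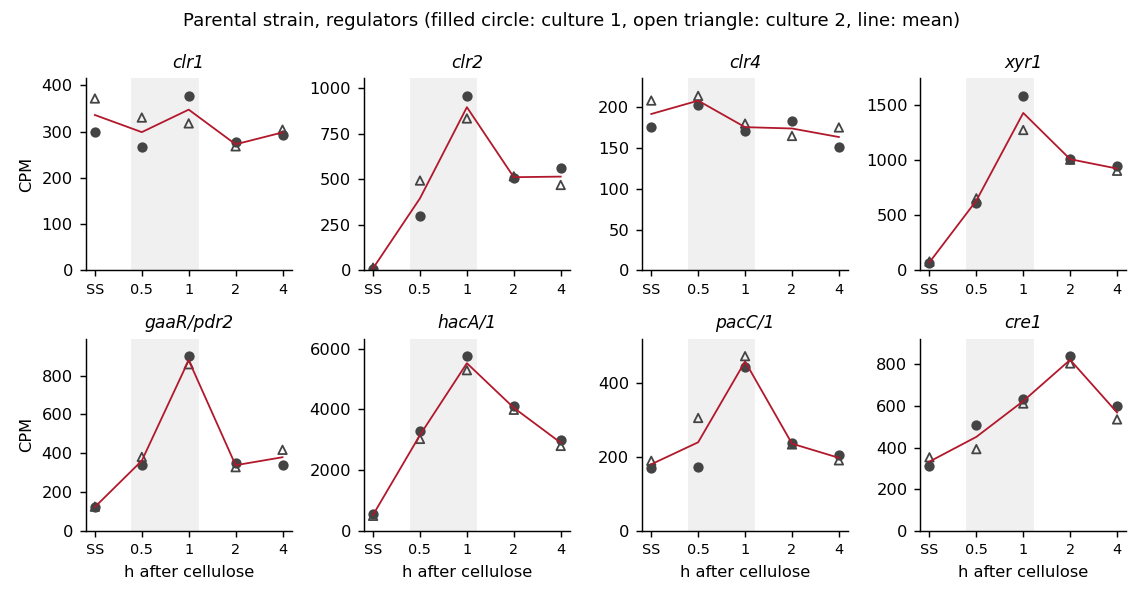
CPM (y axes, from 0) of 8 regulator genes in the parental strain at SS and at 0.5, 1, 2 and 4 h after cellulose, equally spaced, with filled circles for culture R1, open triangles for culture R2 and a line for the mean. At 1 h *gaaR/pdr2* averaged 880 CPM and *pacC/1* 457 CPM, above their means at the other sampled times, while *clr1* and *clr4* stayed within 267 to 377 CPM and 152 to 214 CPM over all 10 libraries.

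The other named regulators moved less or not detectably. *clr1* had 377 and 318 CPM at t2, against 267 and 330 CPM at t1 (log2 0.22 ± 0.22, adjusted p = 0.56), and *clr4* had 171 and 180 CPM at t2, against 202 and 214 CPM at t1 (log2 -0.25 ± 0.14, adjusted p = 0.26). Neither was called. *cre1* (MYCTH_2310085), the gene of the carbon catabolite repressor, rose by 0.47 with an adjusted p of 0.044, which reached 0.34 when a library was left out. Smaller rises were called in the orthologs of AmyR/BglR (starch, MYCTH_2301920, log2 0.60), VeA/Vel1 (velvet complex, MYCTH_2312657, 0.65) and Crz1 (calcium signalling, MYCTH_59287, 0.42), of which the first and the last lost their call without R2 at t1 (adjusted p = 0.058 and 0.061). The fallen gene was the ortholog of CreD, an arrestin-like protein of *Aspergillus*, at -0.51, and this call was lost without any of the 4 libraries in turn. *mcmA/1* (log2 0.29, adjusted p = 0.16) and *stk12* (0.25, adjusted p = 0.57) were not called.

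The wider set of predicted transcription factors also leaned to rises. Of 304 tested genes, 46 rose and 6 fell, with a median of 0.22. Among 97 with a Zn(2)-Cys(6) cluster, the class of most fungal sugar regulators, 18 rose and 1 fell. Over all tested genes, 8.24% rose and 8.38% fell. Counted anew over all 304 factors, 52 were called in the fit of all 48 libraries and 14 with the 4 libraries alone. Fewer than 52 were called without R1 at t1, without R1 at t2 and without R2 at t2. The best hit to Pro1, a regulator of sexual development in *Sordaria*, MYCTH_2295908, had 605 and 547 CPM at t2, against 119 and 174 CPM at t1 (log2 1.97 ± 0.28, adjusted p = 1.3e-05). The bZIP gene MYCTH_2301171 had 317 and 297 CPM at t2, against 83.3 and 109 CPM at t1 (log2 1.68 ± 0.19, adjusted p = 3.4e-07). Both exceeded the change of *clr2* and *xyr1* in size and kept their calls without any one of the libraries. The mean of MYCTH_2301171 was 84.2 CPM at SS and 96.0, 307, 152 and 91.3 CPM from t1 to t4.

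Most transcripts listed under the large ribosomal subunit fell. Of 11 genes under this GO term, 8 fell and 0 rose, with a median of -1.05. Of all tested genes, 8.38% fell and 8.24% rose. The list comes from the study's enrichment analysis of the same samples, so its fall is no independent evidence of a direction. MYCTH_2316445 had 195 and 194 CPM at t2, against 1004 and 416 CPM at t1 (log2 -1.87 ± 0.30, adjusted p = 4e-05), and MYCTH_2315290, the highest of them per length, had 637 and 590 CPM at t2, against 1989 and 1036 CPM at t1 (log2 -1.30 ± 0.21, adjusted p = 3.5e-05). The groups did not overlap in the 8 fallen genes, and in each of them the cultures were closer to each other at t2 than at t1. The count of 8 became 2 without R1 at t1, 5 without R2 at t2 and 2 when the 4 compared libraries were fitted alone. Together the 11 genes held 0.173% and 0.153% of counts at t2, against 0.534% and 0.299% at t1, and their mean share was 0.658% at SS, 0.304% at t3 and 0.682% at t4. The annotated span of MYCTH_2302143, another fallen member (log2 -1.34), overlaps that of a neighbouring gene, and whether counting used strand is not given in the sources used here.

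Several of the largest falls carried annotations of the same kind. MYCTH_2300549, MYCTH_79440 and MYCTH_2315051 stand under the study's terms for ribosome or translation and fell by 2.36, 2.08 and 2.04 on the log2 scale. MYCTH_2300549 had 136 and 152 CPM at t2, against 1135 and 352 CPM at t1, with means of 911 CPM at SS, 367 CPM at t3 and 1016 CPM at t4. The largest fall among genes averaging at least 50 counts was in MYCTH_96047, which no list names, with 12.3 and 13.7 CPM at t2, against 140 and 131 CPM at t1 (log2 -3.38 ± 0.61, adjusted p = 0.00028). Unlike the ribosomal genes it had been at 3.01 CPM at SS and was at 2.40 CPM at t3, so that t1 was its high point. MYCTH_72833 had the same order, with 11.6 and 5.04 CPM at t2, 57.2 and 44.3 CPM at t1 and a mean of 6.78 CPM at SS (log2 -2.60 ± 0.55 for t2 against t1).

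Falls were also called in lists of translation initiation, clamp loading and respiratory complex III, while 8.38% of all tested genes fell. These lists too come from the study's enrichment analysis of the same samples and are no independent evidence of a direction. Of 14 genes of the 43S preinitiation complex, which brings the small ribosomal subunit to the mRNA, 9 fell and 0 rose, with a median of -0.51. MYCTH_2308932 had 126 and 131 CPM at t2, against 278 and 209 CPM at t1 (log2 -0.92 ± 0.14, adjusted p = 2e-05). All 4 genes of the replication factor C complex, the loader of the sliding clamp, fell, with a median of -0.70 and 35.3 and 40.3 CPM at t2 against 54.8 and 79.9 CPM at t1 in MYCTH_2312776, whose call was lost without R2 at t1 (adjusted p = 0.061). None of the 6 genes of the MCM helicase was called (median -0.54), and 2 of them fell with the culture as a term. Of 7 genes of respiratory complex III, 3 fell and 0 rose. Under cytochrome-c oxidase activity 1 of 8 fell, near the share of all tested genes. It was MYCTH_111770, whose call was lost without any of the 4 libraries in turn. Genes of the mitochondrial pyruvate dehydrogenase complex were not called (4 genes, median 0.03).

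In several lists the 2 cultures were further apart at t1 than at t2. At t1 the level in R2 was above that in R1 for 39 of 46 cellulases, 16 of 16 cellulose binding genes and 11 of 11 pectinases, with median log2 differences of 0.65, 0.63 and 1.58. It was below that in R1 for 10 of 11 genes of the large ribosomal subunit and 14 of 14 of the 43S complex (median -0.78 and -0.37). At t2 the medians were 0.27 for cellulases, 0.09 for pectinases, -0.05 for the ribosomal genes and 0.06 for the 43S complex. Within R1 the median change of the cellulases was 1.80 and within R2 1.21, and that of the ribosomal genes was -1.13 and -0.62. For these lists the medians had the same sign in either culture and were larger in R1, whereas the median change of the pectinases was 1.05 within R1 and -0.07 within R2. The part of this difference between cultures in the counts of calls was not tested beyond the omission of libraries. All tested genes had a median difference of 0.01 between the cultures at t1, a value that the TMM correction keeps small by design.

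The same interval was examined in the deletion strains, whose libraries are separate from the parental ones. Parental and *Δclr2* RNA was cleaned up and DNase-treated by the authors before it went to a single centre, while *Δclr1* and *Δclr4* RNA went to another centre with neither step, so for these strains centre and genotype cannot be told apart. In *Δclr1*, 616 genes rose (7.19%) and 856 fell (9.99%) between t1 and t2, in *Δclr2* 845 rose (9.87%) and 981 fell (11.5%), and in *Δclr4* 794 rose (9.27%) and 856 fell (9.99%). Of the 706 genes that rose in the parental strain, 74 (10.5%) rose in *Δclr1*, 264 (37.4%) in *Δclr2* and 381 (54%) in *Δclr4*, which was 12%, 31.2% and 48% of the genes that rose in each strain. Of the same 706 genes, 134 fell in *Δclr1*, 41 in *Δclr2* and 5 in *Δclr4*. Of all tested genes, 9.99%, 11.5% and 9.99% fell in these strains, and 7.19%, 9.87% and 9.27% rose. Of the 718 that fell, 156 (21.7%), 382 (53.2%) and 371 (51.7%) fell in these strains, or 18.2%, 38.9% and 43.3% of their fallen genes, while 30, 4 and 0 rose.

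The difference of the changes was tested for each strain as deletion strain minus parental strain. For *Δclr1* the difference was positive in 418 genes (4.88%) and negative in 691 (8.07%), and for *Δclr2* it was positive in 125 (1.46%) and negative in 252 (2.94%). For *Δclr4* it was positive in 1 gene (0.0117%) and negative in 4 (0.0467%) with edgeR, while 1015 genes had an unadjusted p under 0.05 and DESeq2 called 93. With DESeq2 size factors in edgeR it was positive in 1 and negative in 22 genes. The totals were 625 for *Δclr1* without its R2 at t1, 722 without the parental R1 at t1 and 677 without the parental R2 at t2. For *Δclr2* they were 204 without its R1 at t1, 244 without its R2 at t2, 237 without the parental R2 at t2 and 575 with the culture as a term, and for *Δclr4* between 0 and 91 over the omitted libraries, with 91 without the parental R1 at t1, and 50 with the culture as a term. Where a gene was called in the parental strain, its parental change enters both that call and the difference.

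**Figure D5:**
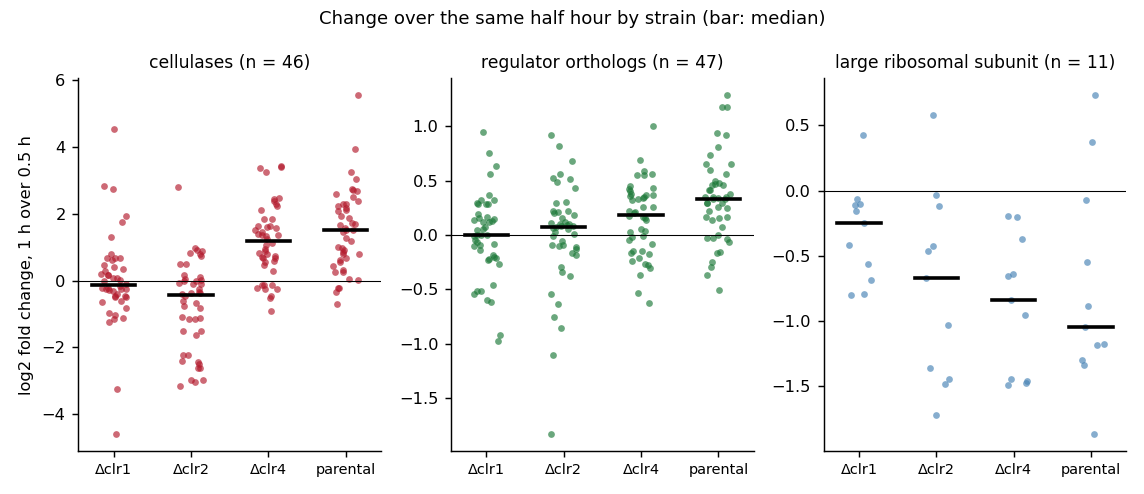
Log2 fold change of 1 h over 0.5 h (y axes) for each tested gene of 3 lists in *Δclr1*, *Δclr2*, *Δclr4* and the parental strain, with a bar at the median and the deleted gene left out of its own strain. The 46 cellulases had medians of -0.14 (*Δclr1*), -0.44 (*Δclr2*), 1.19 (*Δclr4*) and 1.51 (parental strain), and the other panels show 47 regulator orthologs and 11 genes of the large ribosomal subunit.

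Cellulases did not share the parental course without *clr1* or *clr2*. In *Δclr1*, 2 of 46 rose and 3 fell (median -0.14), and in *Δclr2* 1 rose and 13 fell (median -0.44). In *Δclr4*, 26 rose and 0 fell (median 1.19), of which 24 also rose in the parental strain. Over all tested genes, 7.19%, 9.87% and 9.27% rose in these strains and 9.99%, 11.5% and 9.99% fell. The difference from the parental change was called negative for 21 cellulases in *Δclr1*, 23 in *Δclr2* and 0 in *Δclr4*. MYCTH_2303045 (GH6) had 11.7 and 14.7 CPM at t2 and 12.0 and 11.9 CPM at t1 in *Δclr1*, and 45.5 and 49.8 CPM at t2 against 362 and 410 CPM at t1 in *Δclr2*. In *Δclr2* this gene had thus been expressed at t1 and fell thereafter, and its difference from the parental change was -4.69 ± 0.46 on the log2 scale (adjusted p = 3.9e-08). The summed share of cellulases was 0.238% at t2 against 0.241% at t1 in *Δclr1*, 0.305% against 0.801% in *Δclr2* and 12.5% against 6.51% in *Δclr4*. The LPMO gene MYCTH_100518 had at most 20 counts in any t1 or t2 library of *Δclr1* and *Δclr2*, and its fold changes there are not read.

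The change of some regulators differed by strain. In *Δclr1*, 3 of the 47 orthologs rose and 4 fell, in *Δclr2* 7 rose and 5 fell, and in *Δclr4* 9 rose and 1 fell. Among all tested genes, 7.19%, 9.87% and 9.27% rose and 9.99%, 11.5% and 9.99% fell, so the *Δclr1* counts were near these shares. The difference was negative for 10 and positive for 2 in *Δclr1* (all genes 8.07% and 4.88%). It was negative for 3 in *Δclr2* (all genes 2.94%) and not called for any in *Δclr4*. *clr2* had 16.9 and 13.0 CPM at t2, against 18.1 and 40.7 CPM at t1 in *Δclr1*, and 2166 and 2833 CPM at t2, against 2100 and 2245 CPM at t1 in *Δclr4*. It was thus low throughout in *Δclr1*, with a difference of changes of -2.15 from the parental strain (adjusted p = 0.0021), and in *Δclr4* already at t1 above the parental level of 299 and 494 CPM. *hacA/1* had 293 and 332 CPM at t2, against 678 and 665 CPM at t1 in *Δclr2*, where it fell. *gaaR/pdr2* had 227 and 266 CPM at t2, against 220 and 222 CPM at t1 in *Δclr1*, and 229 and 261 CPM at t2, against 266 and 260 CPM at t1 in *Δclr2*, with differences of -1.12 and -1.38.

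The trio of genes that were high at t2 alone had another course in *Δclr1*. MYCTH_85068 had 656 and 697 CPM at t2, against 4352 and 4238 CPM at t1 in that strain, a difference of -5.85 from the parental change (adjusted p = 4.9e-10). MYCTH_2307146 had 113 and 144 CPM at t2, against 467 and 439 CPM at t1, and MYCTH_2315623 had 1152 and 1086 CPM at t2, against 2612 and 3918 CPM at t1, with differences of -4.88 and -4.42. In *Δclr1* all 3 genes were therefore highest at t1 of the compared times. In *Δclr2*, MYCTH_85068 had 2734 and 2122 CPM at t2, against 123 and 304 CPM at t1, and in *Δclr4* 506 and 914 CPM at t2, against 58.2 and 70.3 CPM at t1. MYCTH_2307146 had 523 and 385 CPM at t2, against 58.2 and 106 CPM at t1 in *Δclr2*, and 90.9 and 186 CPM at t2, against 19.1 and 18.8 CPM at t1 in *Δclr4*. MYCTH_2315623 had 5385 and 3937 CPM at t2, against 363 and 613 CPM at t1 in *Δclr2*, and 1593 and 2077 CPM at t2, against 138 and 332 CPM at t1 in *Δclr4*. All 3 genes rose in both of these strains.

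The fall of the listed ribosomal and initiation genes was seen in other strains as well. Among the 11 tested members of the large ribosomal subunit, 2 fell in *Δclr1*, 7 in *Δclr2* and 8 in *Δclr4*. Among the 14 of the 43S complex, 0, 7 and 11 fell in these strains. The fallen share of all tested genes was 9.99%, 11.5% and 9.99%. The difference from the parental change was called, as positive, for 2 and 4 genes in *Δclr1* and for none in the other strains. MYCTH_2316445 averaged 129 CPM at t2 and 192 CPM at t1 in *Δclr1* (n = 2 each). Its t1 level in that strain lay below the parental 1004 and 416 CPM and near the parental t2 level of 195 and 194 CPM.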

How the data were processed

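RNA-seq libraries of 4 strains in 6 states were used, with 2 bioreactor cultures per strain, as 48 libraries from 49 sample entries, since 1 library was sequenced on 2 flow cells and has 1 column. The authors trimmed reads where needed, aligned them with STAR to ASM22609v1 and deposited raw counts per gene, which were used here. The STAR version, the counting program and its strand setting are not given in the sources used here. Deposited tables of the authors' normalized counts, fold changes and p-values were not used.

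Genes were filtered with filterByExpr (minimum count 10), which removed 727 of 9292 genes. TMM factors and a robust quasi-likelihood fit of 24 groups over the 48 libraries were computed with edgeR 4.0.16 (limma 3.58.1, R 4.3.3), so all groups share 1 estimate of the spread, with 24 residual degrees of freedom. The contrast was t2 minus t1, and differences between strains were contrasts of these changes. P-values were adjusted by Benjamini-Hochberg over the 8565 tested genes, with a threshold of 0.05. DESeq2 1.42.0 was an alternative. Tables and figures were made with Python 3.11.15, numpy 2.4.6, pandas 2.3.3 and matplotlib 3.10.9. The fits were tested on simulated data.

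Same-numbered libraries of a strain come from the same bioreactor, according to the sample names, so the numbers pair them. Deviations of t1 and t2 libraries of the same culture correlated with r = 0.25 in the parental strain over 4766 genes with a mean log2 CPM above 5. The study's methods use no such term, so it was an alternative.

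Gene names, enzyme classes, regulators and GO terms are those of the study, and coordinates are from the RefSeq table of ASM22609v1. Lists by product name could not be built, because that table holds no product names. Genes were named by a rule: the 10 largest rises and 10 largest falls (called, averaging at least 50 counts), up to 4 called members per list, 11 regulators, the 5 called genes of highest level at t2, and up to 3 genes per direction and strain for the differences. MYCTH_115968 and MYCTH_2054500 were named after their values were seen. The genes and lists were chosen with earlier results of these data known. Alternatives were another test, normalization, filter, set of libraries, pairing and fold limit, the omission of each library and, chosen after the library totals were seen, t2 libraries thinned to the t1 depth. Library totals limit the precision of low genes, and the spread between cultures includes no separate technical replicate.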

Additional observations from a re-analysis of the deposited data

Results flagged for a closer look

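Results were set apart here because the change between 0.5 h and 1 h differed between a deletion strain and the parental strain by edgeR's test of that difference. Values are log2 differences of changes, deletion strain minus parental strain. The difference was called for 1109 genes in *Δclr1*, 377 in *Δclr2* and 5 in *Δclr4*. Sequencing centre and genotype cannot be told apart for *Δclr1* and *Δclr4*.

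In *Δclr1*, the difference among the genes high at t2 alone in the parental strain was -5.85 for MYCTH_85068, -4.88 for MYCTH_2307146 and -4.42 for MYCTH_2315623 (adjusted p = 4.9e-10 to 4.2e-06 in edgeR). In *Δclr1*, the difference among cellulases was -2.63 for MYCTH_97137, -1.95 for MYCTH_2298502, -3.18 for MYCTH_51545, -2.40 for MYCTH_80312, -1.52 for MYCTH_2303045, -1.83 for MYCTH_109566 and -5.60 for the LPMO gene MYCTH_85556 (adjusted p = 0.00013 to 0.027 in edgeR). In *Δclr1*, the difference among regulators was -1.12 for *gaaR/pdr2* (MYCTH_46266), -1.79 for *xyr1* (MYCTH_2310145), -2.15 for *clr2* (MYCTH_38704), -0.74 for *pacC/1* (MYCTH_81165) and -1.04 for *hacA/1* (MYCTH_2310995) (adjusted p = 0.0012 to 0.039 in edgeR). In *Δclr1*, the difference among genes under ribosome or translation terms was 1.73 for MYCTH_2300549, 1.38 for MYCTH_79440, 1.34 for MYCTH_2315051 and 1.01 for MYCTH_2313790 (adjusted p = 0.004 to 0.034 in edgeR). In *Δclr1*, the difference among other genes was -6.66 for MYCTH_2051636, -2.00 for MYCTH_2298860, -6.93 for MYCTH_2313034, 3.38 for MYCTH_92812, 3.31 for MYCTH_2298057, 3.17 for MYCTH_94523, 2.30 for MYCTH_2308149, -2.22 for MYCTH_64869 and -0.63 for MYCTH_2293961 (adjusted p = 3.5e-05 to 0.048 in edgeR). MYCTH_2051636, MYCTH_2313034 and MYCTH_85556 had at most 23 counts in any t1 or t2 library of *Δclr1*, so the size of their difference rests on few counts.

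In *Δclr2*, the difference among cellulases was -4.54 for MYCTH_97137, -1.81 for MYCTH_2298502, -2.76 for MYCTH_51545, -5.33 for MYCTH_80312, -4.69 for MYCTH_2303045, -1.94 for MYCTH_109566 and -4.99 for MYCTH_85556 (adjusted p = 3.9e-08 to 0.032 in edgeR). In *Δclr2*, the difference among regulators was -1.38 for *gaaR/pdr2* (MYCTH_46266) and -1.91 for *hacA/1* (MYCTH_2310995) (adjusted p = 1.6e-06 to 0.00026 in edgeR). In *Δclr2*, the difference among other genes was -3.10 for MYCTH_2298860, -2.31 for MYCTH_2313034, 2.22 for MYCTH_2298057, 2.85 for MYCTH_94523, -4.81 for MYCTH_2066457 (an acetylxylan esterase with CBM1), 4.06 for MYCTH_2303249, 2.60 for MYCTH_2308149, -1.38 for MYCTH_64869 and -1.51 for MYCTH_2314691 (adjusted p = 8.8e-08 to 0.041 in edgeR).

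In *Δclr4*, the difference for the called genes named here was -1.85 for MYCTH_64869, -1.19 for MYCTH_2293961, -1.08 for MYCTH_2314691 and 0.90 for MYCTH_2294607 (adjusted p = 0.035 to 0.04 in edgeR).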

How the results depend on the processing

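None of the 136 called named genes changed direction under any alternative that was run, while named genes that were not called did without single libraries, such as MYCTH_46981 (GaaX), at -0.03 to 0.95. The 706 rises and 718 falls of the parental strain became 787 and 742 with DESeq2, and the 845 rises and 981 falls of *Δclr2* 640 and 637 without its R2 at t2. Of the called named genes, 68 kept their call without each of the 4 parental libraries in turn and 63 in the other 7 fits, and the 4 libraries alone lost 73, R1 at t1 46, R1 at t2 31, R2 at t2 36 and R2 at t1 21. The cause of these losses was not tested. Without single libraries the parental count of 1424 genes was 767 to 1341, that of *Δclr1* 734 to 1355, of *Δclr2* 1075 to 1345 and of *Δclr4* 788 to 1479. The count of differing genes was 625 to 1243 for *Δclr1*, 204 to 388 for *Δclr2* and 0 to 91 for *Δclr4*. Called members numbered 22 to 28 for cellulases, 2 to 8 for the large ribosomal subunit, 8 to 14 for regulator orthologs and 29 to 47 for transcription factors. The 4 libraries alone gave 384 parental genes, 2 ribosomal genes, 2 orthologs and 14 factors, and the 12 libraries of *Δclr1* gave 942 genes. With an absolute log2 change of at least 1, there were 470 parental genes, 551 in *Δclr1*, 721 in *Δclr2*, 543 in *Δclr4*, 709 and 3 differing genes for *Δclr1* and *Δclr4*, 3 orthologs and 16 factors. For *Δclr4*, 93 differing genes were called by DESeq2, 23 with DESeq2 size factors and 0 in the fit of 24 libraries. With a replicate block for the culture, 575 genes differed in *Δclr2* and 50 in *Δclr4*, the parental count was 1795, all 136 called named genes kept their call and 6 were added.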
